A study of Homo sapiens with 12 samples.

Results

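Alternative exons of 41 human genes with roles at centrosomes, cilia and microtubules were followed in MCF10A cells, a non-tumorigenic breast epithelial line, after depletion of TIP60. TIP60, the product of KAT5, acetylates lysines of histones and other proteins. RNA came from cells transfected with TIP60 siRNA, or with control siRNA, and harvested 72 h later. Each siRNA was given to 3 stable derivatives of the line: cells with wild-type TIP60 or with catalytically dead TIP60, both from siRNA-resistant constructs, and cells with an empty vector. Each of the 6 groups had 2 libraries, numbered 1 and 2. The labels do not say whether a derivative was 1 clone or whether libraries came from separate cultures, so p-values measure the spread between these libraries.

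The genes were those whose symbol starts with CEP, IFT, BBS, KIF, DYN, DCTN, TUB, MAP4, MAP7, CLASP, CLIP, HAUS, TTLL or CKAP, without KIF23 and CEP78; TMEM67 was also searched and gave no event. A cassette exon counted where it matched an annotated exon of such a gene on the same strand of hg38 and was listed in all 12 libraries. This gave 59 events on 57 distinct exons, of 4992 events in all. Inclusion is MISO's estimate, between 0 and 1, of how much of an event's RNA contains the exon. It was tested for the 24 events, in 17 genes, that had at least 10 reads specific to 1 of the 2 isoforms in each library; the other 35 are described by their levels and reads. Whether a gene fits the group's name follows from its symbol alone, and MAP4K4, a kinase, is in it only through its first letters.

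Centrosomes organise microtubules, and cilia grow from a centriole. Intraflagellar transport (IFT) proteins carry cargo along the cilium on kinesin and dynein motors, and the BBS proteins form a coat for membrane cargo there. The HAUS proteins form augmin, which starts new microtubules on the side of existing ones in the spindle, with the gamma-tubulin complex that TUBGCP2 belongs to. MAP4 and MAP7 coat microtubules, CLIP and CLASP proteins sit at growing ends, and TTLL enzymes add amino acids to tubulin.

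Libraries numbered 1 held 1983221 to 2280488 reads that fitted an event, and libraries numbered 2 held 1277953 to 1566296. Reads specific to the KAT5 exon were at 0 to 3.95 per 1e+06 event reads (RPM) under TIP60 siRNA, median 2.02, against 5.31 to 17.2 under control siRNA, median 8.99, and were lower in 6 of 6 same-numbered pairs. Reads without that exon, which were high in the lines with a construct, differed strongly between library numbers. In the libraries numbered 1 they were at 1654 RPM under TIP60 siRNA and 2291 RPM under control siRNA in wild-type TIP60 cells, and at 885 and 988 RPM in dead TIP60 cells. In those numbered 2 they were at 76.8 RPM under TIP60 siRNA and 93.0 RPM under control siRNA in wild-type TIP60 cells, and at 28.2 and 35.1 RPM in dead TIP60 cells. Empty-vector cells had 0 to 8.38 RPM, and the part of this difference between numbers in the comparisons of lines was not tested. Of 14 epithelial markers, 6 had an event, with a summed level of 2989 to 5201 RPM under TIP60 siRNA and 2721 to 4424 RPM under control siRNA. Of 10 mesenchymal markers FN1 alone had an event, at 34.1 to 2469 RPM under TIP60 siRNA and 21.3 to 816.0 RPM under control siRNA; its part in the results was not tested. No event was listed for the 6 immune or the 4 endothelial markers.

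The design asks first what TIP60 siRNA did to the exons. Averaged over the 3 lines, 0 of the 24 tested events passed a limma adjusted p of 0.05, against 57 of 2695 events in all (2.12%), and 3 of 24 had an unadjusted p under 0.05 (12.5%, against 12.4% of all events). With the library number as a replicate block, 0 of 24 passed, against 112 of 2695 (4.16%), and 5 of 24 had an unadjusted p under 0.05, against 19.9%. The average difference, TIP60 siRNA minus control siRNA, was positive for 8 events and negative for 16, with a median of -0.0067, the same as over all events. It was at least 0.1 in size for 3 events, against 9.5% of all events, and ran from -0.1 in IFT20 to 0.162 in IFT22. Of the 24, 4 exons differed the same way in 6 of 6 pairs: exons of IFT22 and MAP4 were higher (2 of 24, against 2.34% of all events) and exons of KIFC3 and IFT20 were lower (2 of 24, against 9.46%).

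**Figure D1:**
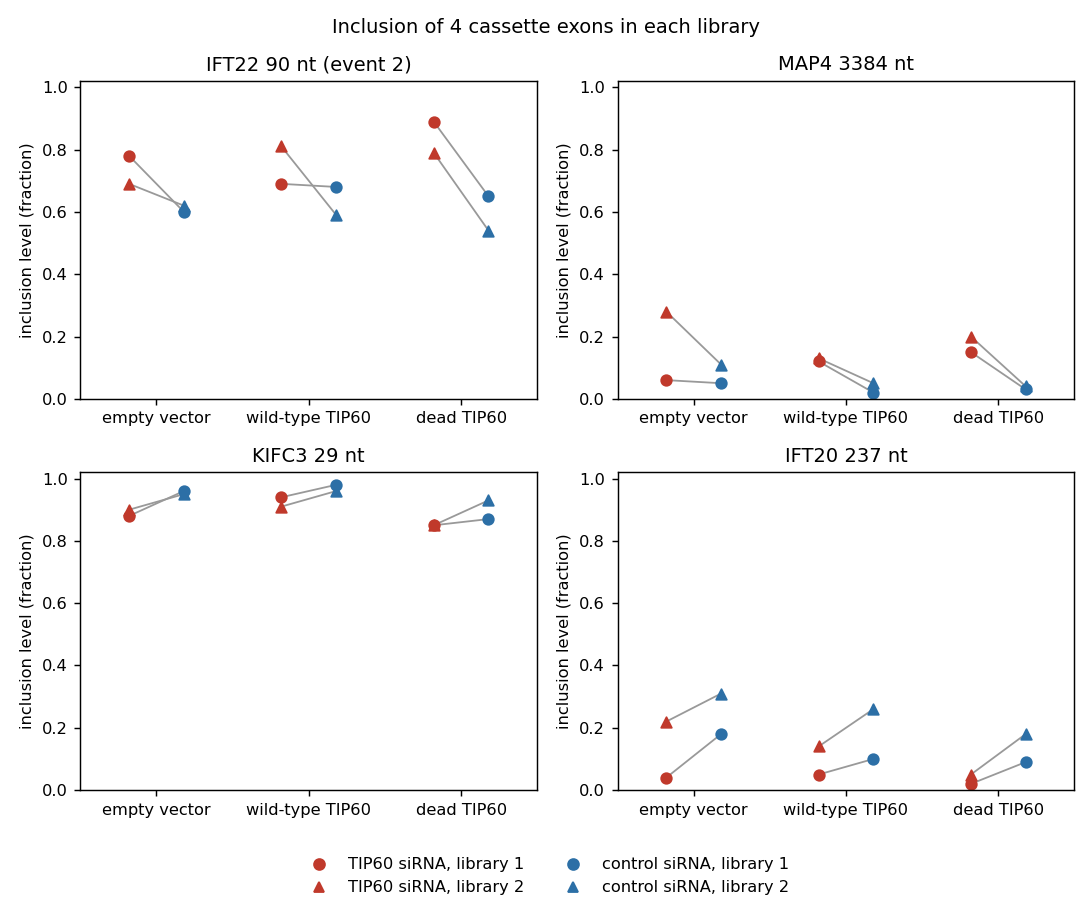
Inclusion level (fraction, 0 to 1) of 4 cassette exons in each of the 12 libraries, TIP60 siRNA in red and control siRNA in blue, by line; circles are libraries numbered 1, triangles libraries numbered 2, and grey lines join the same number. The IFT22 and MAP4 exons are higher under TIP60 siRNA in 6 of 6 pairs, and the KIFC3 and IFT20 exons are lower in 6 of 6 pairs.

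**Figure D2:**
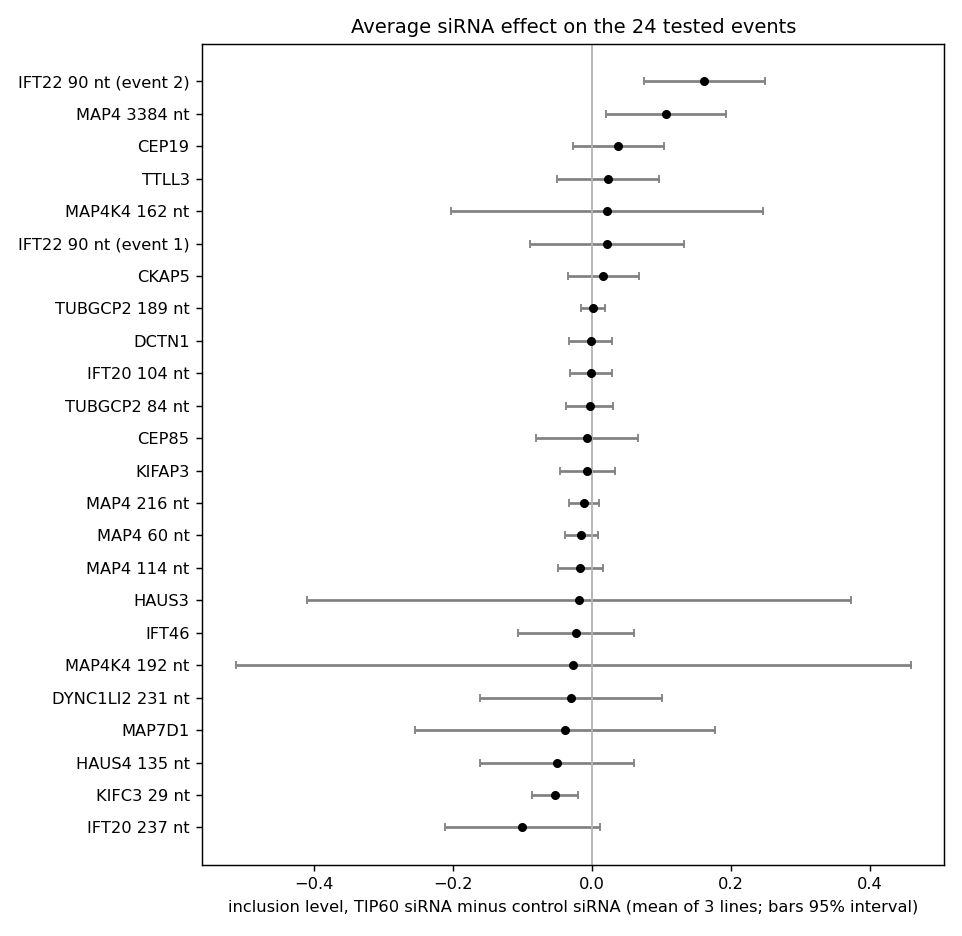
Average difference in inclusion level, TIP60 siRNA minus control siRNA over 3 lines, for the 24 tested events, with 95% intervals from limma. The intervals of IFT22 (event 2), MAP4 (3384 nt) and KIFC3 (29 nt) leave out 0 before adjustment, and those of MAP4K4 (192 nt) and HAUS3 are the widest.

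The transport genes of the cilium had 5 tested events, 2 higher and 3 lower under TIP60 siRNA, and held the exon with the smallest p. IFT22, a small GTPase-like subunit of the IFT-B complex, has a coding exon of 90 nt at chr7:101318124-101318213 on the minus strand. It is shown here, in capitals, with the 15 bases on either side in the spliced transcript, because 2 events turn on it; the sequence is from GENCODE 29.
IFT22 90 nt: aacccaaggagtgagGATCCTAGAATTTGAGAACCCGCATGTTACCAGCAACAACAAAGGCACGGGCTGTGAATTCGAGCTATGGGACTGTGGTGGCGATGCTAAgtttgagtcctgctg
The bases before the exon belong to its neighbour in event 1, the 77-nt exon at chr7:101318956-101319032. In event 2 it follows the exon at chr7:101321671-101321823 directly, so that both forms of event 2 lack the 77-nt exon. The exon after it is the same in both events. Reads within the 90-nt exon, or joining it to the next, can fit inclusion in either event. They can thus come from transcripts with the 77-nt exon. The length of the 90-nt exon is a multiple of 3 and that of the 77-nt exon is not.

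In event 2, inclusion of the IFT22 exon was 0.78 and 0.69 under TIP60 siRNA in empty-vector cells, against 0.6 and 0.62 under control siRNA. In wild-type TIP60 cells it was 0.69 and 0.81, against 0.68 and 0.59. In dead TIP60 cells it was 0.89 and 0.79, against 0.65 and 0.54. The groups did not overlap in any of the 3 lines, and the lowest library under TIP60 siRNA, at 0.69, stood just above the highest under control siRNA, at 0.68. How many of all events were apart in this way was not counted. The average difference was 0.162 (SE 0.0368, 95% interval 0.0747 to 0.249; limma adjusted p = 0.0952, and 0.0637 with the replicate block), and 0.143 and 0.18 within the libraries numbered 1 and 2. It rests on few reads without the exon: 8 in the 6 libraries under TIP60 siRNA, 1 or 2 each, against 22 under control siRNA, 2 to 5 each. Reads with it were 164 under TIP60 siRNA and 115 under control siRNA. The MISO 95% interval of 1 library was wide, such as 0.59 to 0.93 in the first TIP60-siRNA library of empty-vector cells, against 0.42 to 0.77 in its control. The same 8 and 22 skipping reads served the event of the 77-nt exon that ends on the same neighbours, since they join the outer exons past both.

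Event 1 of the same IFT22 exon did not follow event 2. Its inclusion was 0.82 and 0.68 under TIP60 siRNA, against 0.86 and 0.86 under control siRNA, in empty-vector cells, 0.89 and 0.83, against 0.72 and 0.92, in wild-type TIP60 cells and 0.77 and 0.93, against 0.73 and 0.70, in dead TIP60 cells. The groups overlapped, 3 pairs were higher and 3 lower, and the average difference was 0.0217 (95% interval -0.0893 to 0.133; limma adjusted p = 0.996).

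IFT20, another IFT-B subunit, which is also found at the Golgi, has 2 exon forms that begin at different places and end together, of 237 nt at chr17:28332146-28332382 and of 36 nt at chr17:28332146-28332181, minus strand. The longer form is only partly coding. Its inclusion was 0.04 and 0.22 under TIP60 siRNA in empty-vector cells, against 0.18 and 0.31 under control siRNA. It was 0.05 and 0.14, against 0.1 and 0.26, in wild-type TIP60 cells, and 0.02 and 0.05, against 0.09 and 0.18, in dead TIP60 cells. Every TIP60-siRNA library was below the control library of its number, and libraries numbered 2 were above those numbered 1 in each group. The groups thus overlapped in empty-vector and wild-type TIP60 cells but not in dead TIP60 cells. The share of all events without overlap was not counted. The average difference was -0.1 (SE 0.0475, 95% interval -0.212 to 0.0122; limma adjusted p = 0.487, and 0.0622 with the replicate block). In the share of isoform-specific reads, a quasi-binomial model gave -0.337, past the threshold with the block (adjusted p = 0.0329 with limma's variance moderation) and not without it (0.325). With the block, that model passed 113 of 2695 events in all.

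Reads of IFT20 were also compared by form. In these bulk samples, fewer cells of a type and less RNA per cell cannot be told apart. Reads with the 237-nt exon were at 7.55 and 15.2 RPM under TIP60 siRNA in empty-vector cells, against 11.6 and 40.2 RPM under control siRNA. They were at 5.03 and 16.0 RPM, against 11.1 and 40.5 RPM, in wild-type TIP60 cells. They were at 4.39 and 8.61 RPM, against 10.1 and 36.4 RPM, in dead TIP60 cells. In 6 of 6 pairs they were lower under TIP60 siRNA, and the gap was wider in the libraries numbered 2. Reads without the exon numbered 161 under TIP60 siRNA and 101 under control siRNA. In the libraries numbered 1 they were at 22.2 against 6.52 RPM in empty-vector, 12.3 against 11.6 RPM in wild-type TIP60 and 23.7 against 11.5 RPM in dead TIP60 cells. In those numbered 2 they were at 4.55 against 6.57, 7.35 against 8.64 and 14.9 against 11.5 RPM. Nearly all of these reads also counted for the 36-nt form, which had 8 reads of its own under TIP60 siRNA and 20 under control siRNA.

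The remaining transport exons had smaller average differences. The 104-nt coding exon of IFT20, whose event overlaps TMEM97 on the other strand, was included at 0.91 and 0.94 under TIP60 siRNA, against 0.91 and 0.95 under control siRNA, in empty-vector cells, 0.95 and 0.96, against 0.96 and 0.96, in wild-type TIP60 cells and 0.98 and 0.94, against 0.95 and 0.96, in dead TIP60 cells. Both siRNAs gave nearly the same range, with an average difference of -0.0017 (95% interval -0.0321 to 0.0287). The exon of IFT46, an IFT-B subunit, was at 0.95 and 0.77 under TIP60 siRNA, against 0.97 and 0.92 under control siRNA, in empty-vector cells, 0.93 and 0.87, against 0.95 and 0.91, in wild-type TIP60 cells and 0.98 and 0.93, against 0.95 and 0.87, in dead TIP60 cells. The low value of 0.77 was in 1 library, every specific read carried the exon, and the average difference was -0.0233 (95% interval -0.107 to 0.0601). BBS12, which helps assemble the BBS complex, had no read specific to its UTR exon of 188 nt in any library, and its level of 0.04 to 0.24 comes from reads without it.

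**Figure D3:**
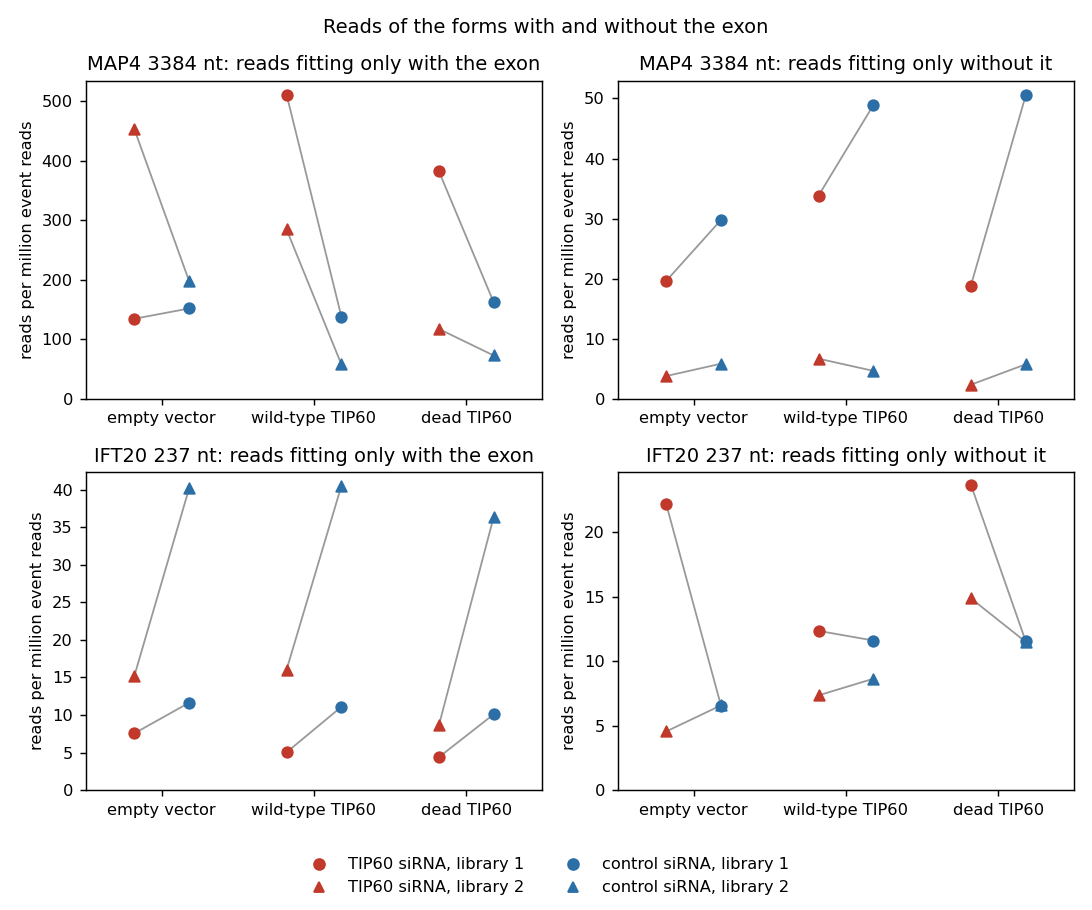
Reads specific to the inclusion form (left) or to the skipping form (right) of MAP4 3384 nt (top) and IFT20 237 nt (bottom), in RPM, by library; colours and symbols as in the plot of 4 exons. Reads with the MAP4 exon are higher under TIP60 siRNA in 5 of 6 pairs, and reads with the IFT20 exon lower in 6 of 6.

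MAP4, a major microtubule-coating protein of non-neuronal cells, had 5 events. It accounts for 4 of the 6 tested events of microtubule-binding and -modifying proteins, of which 2 were higher and 4 lower under TIP60 siRNA. The longest exon of all, 3384 nt of coding sequence at chr3:47909038-47912421 on the minus strand, was a minor form. Its first 150 bases are shown in capitals after the last 15 bases of the exon before it (GENCODE 29), as the start of the stretch that the reads below cover.
MAP4 3384 nt, start: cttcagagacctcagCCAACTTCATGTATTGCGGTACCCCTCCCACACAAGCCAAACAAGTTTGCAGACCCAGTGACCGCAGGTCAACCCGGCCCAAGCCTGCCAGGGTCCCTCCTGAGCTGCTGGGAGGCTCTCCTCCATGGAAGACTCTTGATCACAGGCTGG
Inclusion was 0.06 and 0.28 under TIP60 siRNA in empty-vector cells, against 0.05 and 0.11 under control siRNA. It was 0.12 and 0.13, against 0.02 and 0.05, in wild-type TIP60 cells, and 0.15 and 0.2, against 0.03 and 0.04, in dead TIP60 cells. The groups did not overlap in the lines with a TIP60 construct and overlapped in empty-vector cells. This exon was among 2 of 24 events apart by at least 0.05 in at least 2 lines, against 5.23% of all events. The average difference was 0.107 (SE 0.0365, 95% interval 0.0204 to 0.193; limma adjusted p = 0.266, and 0.113 with the replicate block), and 0.0767 in the libraries numbered 1 and 0.137 in those numbered 2. Leaving out 1 library at a time gave 0.07 to 0.143, the latter without the first TIP60-siRNA library of empty-vector cells. The quasi-binomial model with the block gave 0.13 in read share and passed (adjusted p = 0.0207 with limma's variance moderation). That fit passed 113 of 2695 events in all.

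In reads, the MAP4 events differed in opposite directions. Reads with the 3384-nt exon were at 134.4 and 453 RPM under TIP60 siRNA in empty-vector cells, against 151.8 and 198 RPM under control siRNA. They were at 511 and 284 RPM, against 138.2 and 57.8 RPM, in wild-type TIP60 cells, and at 382 and 117.4 RPM, against 162.1 and 72.8 RPM, in dead TIP60 cells. The number 1 pair of empty-vector cells was the exception to a higher level under TIP60 siRNA. Reads that skip this exon were lower under TIP60 siRNA in 5 of 6 pairs, with 174 against 290 reads in sum. The event as a whole had 154 and 457 RPM under TIP60 siRNA, against 182 and 204 RPM under control siRNA, in empty-vector cells, 545 and 291, against 188 and 62.4, in wild-type TIP60 cells and 402 and 119.7, against 213 and 78.5, in dead TIP60 cells. Higher in 5 of 6 pairs, it gave a difference in log2(RPM + 0.5) of 1.03 (SE 0.48, 95% interval -0.07 to 2.13; limma adjusted p = 0.51, and 0.0999 with the replicate block). Reads of the 114-nt event at chr3:47869214-47869327 gave -0.52 (SE 0.73, 95% interval -2.19 to 1.15; limma adjusted p = 0.942, and 0.0244 with the replicate block), and were lower in 6 of 6 pairs. Those of the 51-nt event gave -0.83 and those of the 216-nt event -0.39, both lower in 6 of 6 pairs, the 216-nt event no longer so with median-of-ratios size factors. The 60-nt event gave -0.32, lower in 5 of 6. The 5 events share the gene and partly the transcripts, so that they are not separate observations.

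Inclusion of the shorter MAP4 exons lay near its bounds. The 60-nt exon at chr3:47871227-47871286 was at 0.96 and 0.99 under TIP60 siRNA, against 0.99 and 0.98 under control siRNA, in empty-vector cells, 0.95 and 0.99, against 0.99 and 0.99, in wild-type TIP60 cells and 0.95 and 0.98, against 0.97 and 0.99, in dead TIP60 cells. The 114-nt exon was at 0.97 and 0.93 under TIP60 siRNA, against 0.97 and 0.97 under control siRNA, in empty-vector cells, 0.98 and 0.94, against 0.99 and 0.96, in wild-type TIP60 cells and 0.98 and 0.93, against 0.98 and 0.96, in dead TIP60 cells. The 216-nt exon at chr3:47875685-47875900 was at 0.96 and 0.96 under TIP60 siRNA, against 0.98 and 0.98 under control siRNA, in empty-vector cells, 0.98 and 0.97, against 0.98 and 0.97, in wild-type TIP60 cells and 0.99 and 0.94, against 0.99 and 0.97, in dead TIP60 cells. The average differences of these 3 exons were -0.015, -0.0167 and -0.0117, and each 95% interval held 0 (-0.0394 to 0.0094, -0.0493 to 0.016 and -0.0333 to 0.0099). The 51-nt exon was at 0.01 to 0.12 and had 0 or 1 read of its own in each library.

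The 4 tested events of motor genes had average differences below 0, as had 62.2% of all tested events, and those of DCTN1 and KIFAP3 were -0.0017 and -0.0067. KIFC3, a minus-end-directed kinesin, held the exon with the second smallest p. Its 29-nt, partly coding exon at chr16:57759125-57759153 on the minus strand lies in an event that overlaps AC092118.2 on the other strand. Inclusion was 0.88 and 0.9 under TIP60 siRNA in empty-vector cells, against 0.96 and 0.95 under control siRNA. It was 0.94 and 0.91, against 0.98 and 0.96, in wild-type TIP60 cells, and 0.85 in both libraries, against 0.87 and 0.93, in dead TIP60 cells. The groups did not overlap in any line, and the share of all events for which this held was not counted. The average difference was -0.0533 (SE 0.0139, 95% interval -0.0861 to -0.0206; limma adjusted p = 0.14, and 0.0928 with the replicate block). Reads without the exon numbered 25 under TIP60 siRNA, 1 to 8 a library, against 7 under control siRNA, 0 to 4 a library. Reads with it numbered 336 under TIP60 siRNA and 329 under control siRNA.

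DCTN1 encodes the largest dynactin subunit, the p150 arm that ties dynein to microtubules. Its 15-nt exon is the shortest that could be tested, and short exons of CLASP2, a plus-end protein, and MAP4K4 are shown beside it in capitals with 15 bases on either side (GENCODE 29), since all 3 were minor forms.
DCTN1 15 nt, chr2:74363614-74363628, minus strand: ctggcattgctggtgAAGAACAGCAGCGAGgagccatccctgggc
CLASP2 24 nt, chr3:33574473-33574496, minus strand: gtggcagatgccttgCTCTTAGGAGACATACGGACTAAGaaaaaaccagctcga
MAP4K4 9 nt, chr2:101868029-101868037, plus strand: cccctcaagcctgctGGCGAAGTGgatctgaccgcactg
The DCTN1 exon was at 0.02 and 0.06 under TIP60 siRNA, against 0.02 and 0.05 under control siRNA, in empty-vector cells, 0.04 and 0.07, against 0.03 and 0.04, in wild-type TIP60 cells and 0.01 and 0.03, against 0.04 and 0.06, in dead TIP60 cells. The groups overlapped in each line but dead TIP60, with an average difference of -0.0017 (95% interval -0.0324 to 0.0291). How many of all events were without overlap in a line was not counted. The CLASP2 exon had no read of its own in any library. Its event had 5.54 and 6.82 RPM under TIP60 siRNA, against 10.2 and 4.38 RPM under control siRNA, in empty-vector cells, 15.5 and 2.0, against 26.2 and 5.31, in wild-type TIP60 cells and 19.7 and 3.13, against 14.4 and 4.47, in dead TIP60 cells. Lower in 4 of 6 pairs, it gave a log2 difference of -0.37 (SE 0.73, 95% interval -2.02 to 1.28; limma adjusted p = 0.97), a sign that turned without the second TIP60-siRNA library of wild-type TIP60 cells (0.08) or of dead TIP60 cells (0.04). The 9-nt MAP4K4 exon was at 0.09 to 0.44 under TIP60 siRNA and 0.15 to 0.37 under control siRNA, and fell short of the read minimum.

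The 231-nt exon of DYNC1LI2, a light intermediate chain of cytoplasmic dynein, was at 0.90 and 0.85 under TIP60 siRNA, against 0.97 and 0.89 under control siRNA, in empty-vector cells, 0.95 and 0.87, against 0.97 and 0.87, in wild-type TIP60 cells and 0.97 and 0.72, against 0.97 and 0.77, in dead TIP60 cells. It was lower in 4 pairs and equal in 2, with an average difference of -0.03 (95% interval -0.161 to 0.101) that was positive on the share of specific reads, at 0.0033. Over the 12 libraries 1 of its specific reads lacked the exon. Reads of both DYNC1LI2 events were lower in 6 of 6 pairs, with log2 differences of -0.88 for the 231-nt and -0.92 for the 117-nt event (95% intervals -2.40 to 0.64 and -2.46 to 0.63). KIFAP3, which links kinesin-2 to cargo, differed by -0.0067 (95% interval -0.0459 to 0.0326).

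The 7 tested centrosome and spindle events, in 6 genes, were higher in 3 and lower in 4 cases. Without the replicate block none had an unadjusted p under 0.05, and with it CKAP5 did. CEP19, a centriole protein, has a partly coding exon at chr3:196708528-196708727 that was at 0.89 and 0.88 under TIP60 siRNA, against 0.95 and 0.84 under control siRNA, in empty-vector cells, 0.91 and 0.91, against 0.87 and 0.87, in wild-type TIP60 cells and 0.95 and 0.92, against 0.91 and 0.79, in dead TIP60 cells. It was higher in 5 of 6 pairs, by 0.0383 on average (95% interval -0.0266 to 0.103). Over the 12 libraries 1 of its specific reads lacked the exon, in a control library. The 135-nt exon of HAUS4 was at 0.93 and 0.71 under TIP60 siRNA, against 0.92 and 0.87 under control siRNA, in empty-vector cells, 0.83 and 0.86, against 0.94 and 0.89, in wild-type TIP60 cells and 0.85 and 0.77, against 0.90 and 0.73, in dead TIP60 cells. It was lower in 4 of 6 pairs, by an average difference of -0.05 (95% interval -0.161 to 0.0608). CKAP5, the microtubule polymerase also called ch-TOG, has a 180-nt coding exon at chr11:46754888-46755067 on the minus strand that was in nearly all transcripts. Its inclusion was 0.99 and 0.92 under TIP60 siRNA, against 0.99 and 0.95 under control siRNA, in empty-vector cells, 0.98 and 0.95, against 0.98 and 0.92, in wild-type TIP60 cells and 0.99 and 0.93, against 0.94 and 0.88, in dead TIP60 cells. Higher in 3 pairs, lower in 1 and equal in 2, it overlapped between the groups, and the average difference over lines was 0.0167 (95% interval -0.0338 to 0.0672; limma adjusted p = 0.955). With the replicate block its SE was 0.0068, against 0.0214 without it (limma unadjusted p = 0.0473, adjusted p = 0.245). Over 12 libraries 5 of its specific reads lacked the exon, 4 of them in the control libraries of dead TIP60 cells. On the share of specific reads in place of the MISO estimate, that average was 0.0036 and passed (limma adjusted p = 0.037), as did 40 of 2695 events in all. The 84-nt exon of TUBGCP2 was at 0.00 and 0.02 under TIP60 siRNA, against 0.01 and 0.05 under control siRNA, in empty-vector cells, 0.01 and 0.02, against 0.01 and 0.03, in wild-type TIP60 cells and 0.01 and 0.06, against 0.01 and 0.03, in dead TIP60 cells. None of its specific reads carried the exon, and its average difference was -0.0033 (95% interval -0.0367 to 0.03).

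Within single lines, 0 of 24 events passed limma for TIP60 siRNA against control siRNA, with or without the replicate block, and 1, 0 and 1 had an unadjusted p under 0.05 in empty-vector, wild-type TIP60 and dead TIP60 cells, against 6.49%, 4.3% and 6.72% of all events. All events gave 1 of 2695 in empty-vector cells (0.0371%), 0 in wild-type TIP60 cells (0%) and 1 in dead TIP60 cells (0.0371%). With the block these were 4 (0.148%), 4 (0.148%) and 10 (0.371%). The largest difference of a line was that of IFT22 event 2 in dead TIP60 cells, 0.245 (SE 0.0637, 95% interval 0.0943 to 0.396; limma adjusted p = 0.357, and 0.193 with the replicate block). It was 0.125 (95% interval -0.0257 to 0.276) in empty-vector cells and 0.115 (95% interval -0.0357 to 0.266) in wild-type TIP60 cells. KIFC3 differed by -0.065 (95% interval -0.122 to -0.0083) in empty-vector cells and by -0.045 (95% interval -0.102 to 0.0117) in wild-type TIP60 cells. For MAP4 3384 nt the difference was 0.14 (95% interval -0.0094 to 0.289) in dead TIP60 cells. IFT22 event 2 and MAP4 3384 nt were also the events whose libraries were apart by at least 0.1 in dead TIP60 cells (2 of 24, against 4.12% of all events). In empty-vector cells 0 of 24 were so apart (3.49% of all events), and in wild-type TIP60 cells 0 of 24 (2.52%).

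The resistant constructs address whether active TIP60 alters the response. By limma, the siRNA effect differed past the threshold between lines for 0 of the 24 events, and for 0 of 2695 events in all (0%), both for wild-type TIP60 minus empty vector and for dead minus wild-type TIP60. At an unadjusted p under 0.05 these were 44 and 32 of 2695 (1.63% and 1.19%), none of them among the 24. With the replicate block, 0 of 24 and 0 of 2695 passed for either. Unadjusted, 1 and 2 of the 24 were then under 0.05, and the share over all events was not counted. TTLL3, a tubulin glycylase, came nearest without the block. Its 142-nt exon was at 0.32 and 0.22 under TIP60 siRNA in dead TIP60 cells, against 0.13 and 0.21 under control siRNA. It was at 0.16 and 0.08, against 0.26 and 0.14, in wild-type TIP60 cells, and at 0.16 and 0.18, against 0.12 and 0.12, in empty-vector cells. The exon was lower under TIP60 siRNA in 2 of 2 pairs with the wild-type construct and higher in 4 of 4 pairs of the other lines. How many of all events had these signs was not counted. Reads with the exon were few, 1 to 13 a library under TIP60 siRNA and 2 to 11 under control siRNA. Dead minus wild-type TIP60 was 0.18 (95% interval -0.0012 to 0.361; limma adjusted p = 1) and wild-type minus empty vector was -0.13 (95% interval -0.311 to 0.0512; limma adjusted p = 1). One flanking exon of this event is shared with the read-through gene ARPC4-TTLL3. The next smallest were IFT22 event 1 at 0.15 for wild-type minus empty vector (95% interval -0.122 to 0.422) and DCTN1 at -0.05 for dead minus wild-type TIP60 (95% interval -0.125 to 0.0252).

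Under control siRNA, 0 of 24 events passed limma between a construct and the empty vector, with 0 of 2695 in all for either construct (0%). At an unadjusted p under 0.05 these were 42 for wild-type (1.56%) and 21 for dead TIP60 (0.779%), and 0 of the 24. With the replicate block, 0 of 24 and 0 of 2695 passed for either. Unadjusted, 0 of the 24 for wild-type and 2 for dead TIP60 were then under 0.05, and the share over all events was not counted. Without the block, the smallest p with wild-type TIP60 were those of TTLL3, 0.08 (95% interval -0.0481 to 0.208), and IFT20 104 nt, 0.03 (95% interval -0.0227 to 0.0827). With dead TIP60 they were KIFC3, -0.055 (95% interval -0.112 to 0.0017), and IFT22 event 1, -0.145 (95% interval -0.337 to 0.0473).

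Event reads, all reads that fit either isoform, follow the abundance of the exons concerned and are not a gene count. Their differences are on the log2(RPM + 0.5) scale. For the average of the 3 lines, 0 of 59 events passed limma without the block, against 37 of 4992 (0.741%), and 4 of 59 with it, against 837 of 4992 (16.8%). At an unadjusted p under 0.05 there was 1 of 59, against 11% of all events, and 12 of 59 with the block, against 32%. The 4 were lower under TIP60 siRNA: both HAUS4 events, MAP4 114 nt and MAP4K4 192 nt. Over the 59, the median log2 difference was -0.19, against -0.1 over all events, with 27 higher and 32 lower. Median-of-ratios size factors moved the median of all events by 0.11, to 0.01, and that of the 59 to -0.08, with 28 higher and 31 lower. In 6 of 6 pairs 2 events were higher (against 12.1% of all) and 13 lower (against 18.7%). With size factors these were 7 and 10, and the shares over all events were not counted with them.

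HAUS4, an augmin subunit, had the smallest p for reads. Its 135-nt coding exon at chr14:22951555-22951689 on the minus strand is shown in capitals with 15 bases on either side (GENCODE 29).
HAUS4 135 nt: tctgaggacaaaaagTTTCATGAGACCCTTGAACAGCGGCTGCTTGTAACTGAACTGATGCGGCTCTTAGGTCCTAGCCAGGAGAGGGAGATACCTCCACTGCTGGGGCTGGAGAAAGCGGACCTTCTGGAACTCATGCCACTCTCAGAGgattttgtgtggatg
Its event had 24.2 and 11.4 RPM under TIP60 siRNA in empty-vector cells, against 49.8 and 27.8 RPM under control siRNA. It had 37.5 and 14.0 RPM, against 44.9 and 33.9 RPM, in wild-type TIP60 cells, and 22.4 and 12.5 RPM, against 42.3 and 23.0 RPM, in dead TIP60 cells. The level was lower in 6 of 6 pairs; the groups overlapped in wild-type TIP60 cells, and in dead TIP60 cells the controls started just above the TIP60-siRNA libraries. The log2 difference was -0.92 (SE 0.40, 95% interval -1.84 to -0.01; limma adjusted p = 0.449, and 0.0126 with the replicate block). The 143-nt event of HAUS4, which overlaps AL132780.1 on the other strand, gave -1.15 (SE 0.77, 95% interval -2.91 to 0.61; limma adjusted p = 0.733, and 0.0094 with the block). It was lower in 6 of 6 pairs too. The other augmin events, of HAUS2, HAUS3 and HAUS7, were not among the 13. Reads of HAUS2 were higher in 5 of 6 pairs, and in 6 of 6 with size factors. Those of HAUS3 were lower in 4 of 6, and those of HAUS7 higher in 3 and lower in 3.

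MAP4K4, a kinase upstream of JNK signalling, had in its 192-nt event 56.4 and 62.2 RPM under TIP60 siRNA in empty-vector cells, against 196 and 92.8 RPM under control siRNA. It had 117.5 and 42.7 RPM, against 162.4 and 82.4 RPM, in wild-type TIP60 cells, and 131.6 and 40.7 RPM, against 161.1 and 80.4 RPM, in dead TIP60 cells. All 6 pairs were lower, with a log2 difference of -0.84 (SE 0.43, 95% interval -1.82 to 0.15; limma adjusted p = 0.581, and 0.0283 with the block).

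Of the remaining events of smallest p, that of MAP7D1, a relative of MAP7, had 98.7 and 180.4 RPM under TIP60 siRNA, against 103 and 116 RPM under control siRNA, in empty-vector cells, 98.3 and 138, against 93.8 and 93.0, in wild-type TIP60 cells and 155 and 256, against 132 and 105, in dead TIP60 cells. It was higher in 5 of 6 pairs, with a log2 difference of 0.45 (95% interval -0.10 to 1.01). CEP19 had 59.4 and 69.0 RPM under TIP60 siRNA, against 49.3 and 52.6 RPM under control siRNA, in empty-vector cells, 24.2 and 45.4, against 32.8 and 42.5, in wild-type TIP60 cells and 78.9 and 79.0, against 39.4 and 40.2, in dead TIP60 cells. It too was higher in 5 of 6 pairs, by 0.38 on the log2 scale (95% interval -0.19 to 0.95). The 117-nt event of CLIP1, a plus-end protein, had 36.8 and 73.5 RPM under TIP60 siRNA, against 85.7 and 90.6 RPM under control siRNA, in empty-vector cells, 83.7 and 47.4, against 102 and 71.1, in wild-type TIP60 cells and 85.5 and 14.9, against 95.7 and 51.7, in dead TIP60 cells. It was lower in 6 of 6 pairs, with a log2 difference of -0.72 (95% interval -1.76 to 0.33). In the libraries numbered 2 it had 0 reads specific to 1 isoform, and with only such reads counted the difference was -0.12. BBS12 had 84.1 and 89.5 RPM under TIP60 siRNA, against 43.8 and 75.2 RPM under control siRNA, in empty-vector cells, 65.4 and 48.1, against 62.5 and 53.8, in wild-type TIP60 cells and 132 and 66.5, against 72.1 and 45.3, in dead TIP60 cells. It was higher in 5 of 6 pairs, by 0.42 (95% interval -0.23 to 1.06), a sign that turned, to -0.74, when only reads fitting 1 isoform were counted.

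**Figure D4:**
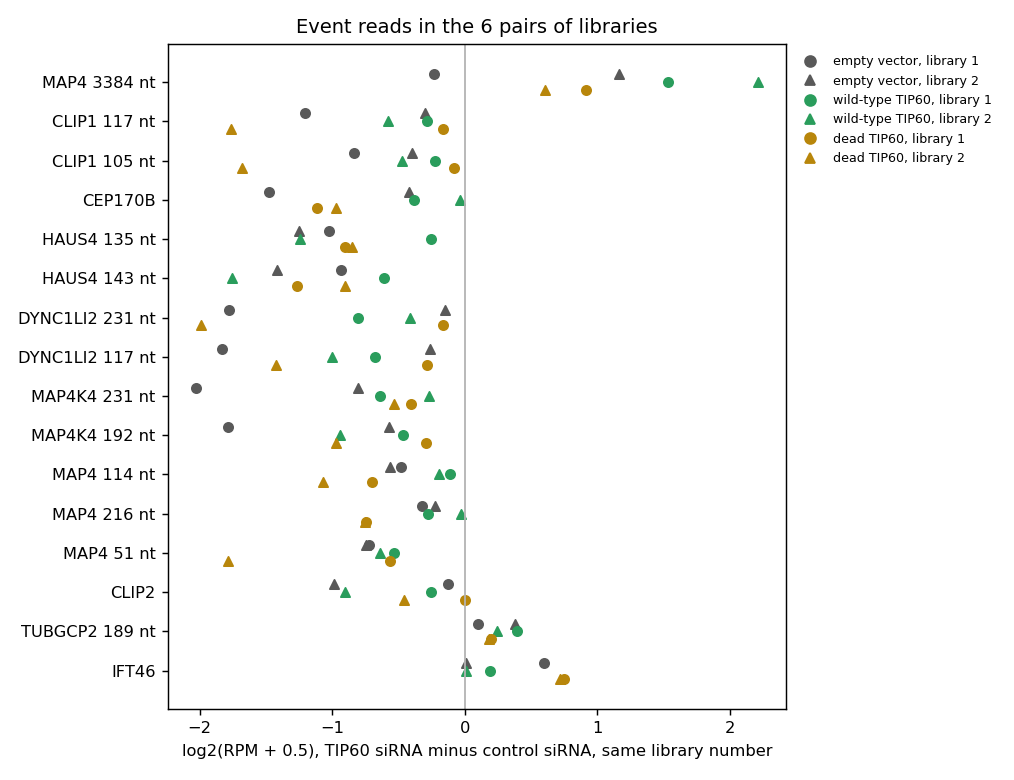
Difference in log2(RPM + 0.5), TIP60 siRNA minus control siRNA, of the same library number, for MAP4 3384 nt and the 15 events that differed the same way in 6 of 6 pairs; colours are lines, circles libraries numbered 1 and triangles libraries numbered 2. The MAP4 3384-nt event is positive in 5 of 6 pairs while MAP4 51, 114 and 216 nt are negative in 6 of 6, as are both HAUS4 events.

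For single lines, 0 of 59 events passed limma on event reads with or without the block. Without it, 0 of 4992 passed in each line (0%), and 0 of 59 had an unadjusted p under 0.05, against 4.77% of all events in empty-vector, 1.88% in wild-type TIP60 and 4.67% in dead TIP60 cells. With it, 154 passed in empty-vector cells (3.08%), 1 in wild-type TIP60 cells (0.02%) and 142 in dead TIP60 cells (2.84%).

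Several exons differed more between library numbers than between siRNAs. The 192-nt coding exon of MAP4K4 at chr2:101871494-101871685 was included at 0.22 to 0.38 in the 6 libraries numbered 1 and at 0.79 to 0.92 in the 6 numbered 2, in all groups. Its average siRNA difference was -0.0267, with a 95% interval from -0.513 to 0.459, and -0.0567 and 0.0033 within the libraries numbered 1 and 2. HAUS3, whose exon is shared with POLN, averaged 0.318 in libraries numbered 1 and 0.743 in those numbered 2. For CEP131, a centriolar satellite protein, these means were 0.258 and 0.765, and for DCTN3, a small dynactin subunit, 0.892 and 0.502. Means differed by over 0.1 in 26 of the 59 events (44.1%), against 36.0% of all events on annotated exons, and in 6 of the 24 tested (25%), against 22.1%. What the numbers stand for is not in the labels. Libraries numbered 1 had a median of 21 to 27 isoform-specific reads an event, with 50.1% to 53.2% of reads fitting neither isoform, and libraries numbered 2 had 13 to 17, with 64.5% to 65.7%; the part of this in the differences was not tested.

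**Figure D5:**
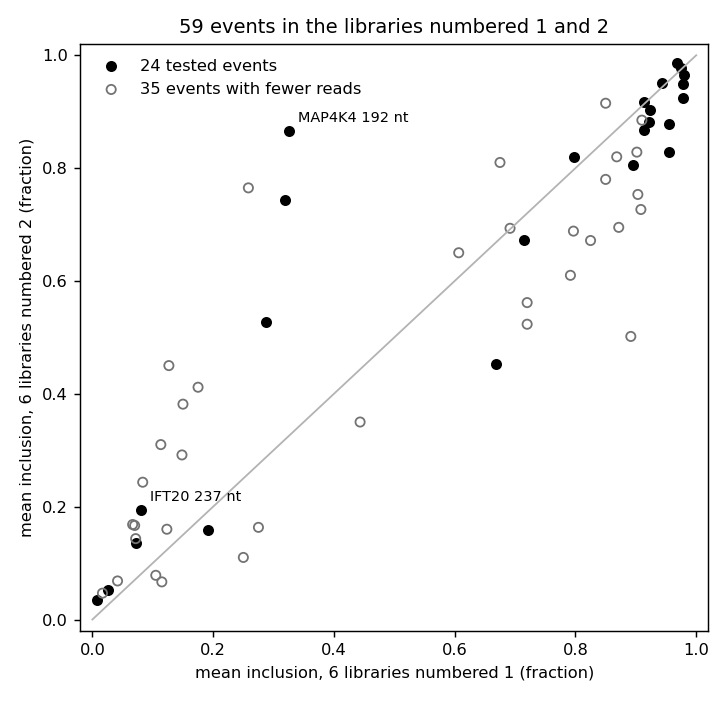
Mean inclusion level of the 59 events in the 6 libraries numbered 1 (horizontal axis) and the 6 numbered 2 (vertical axis); filled points are the 24 tested events, open points the 35 with fewer reads, and the line marks equal values. MAP4K4 192 nt lies far above the line, at 0.325 and 0.865.

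The exon's length was a multiple of 3 in 45 of the 59 events (76.3%), against 2587 of 4643 events on annotated exons (55.7%); among those tested the shares were 18 of 24 (75%) and 56.2%. Several events come from the same gene, and no test was made. Lengths ran from 9 to 3384 nt, with a median of 132 nt against 115 nt. In 46 of the 59 events the exon was coding, in 8 partly coding and in 5 in a UTR. In 51 of 59 events no exon overlapped that of another gene.

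Among the 35 events with fewer reads, 3 were picked after their values were seen. The exon of KIF13A, a kinesin that carries endosomal cargo, was at 0.23 to 0.87 under TIP60 siRNA, median 0.55, against 0.13 to 0.39 under control siRNA, median 0.285. It was higher in 5 of 6 pairs, and the groups were apart in both lines with a TIP60 construct and overlapped in empty-vector cells. Its isoform-specific reads numbered 3 to 19 a library. The 0.87 rests on 8 of them, and the 0.23, in dead TIP60 cells, on 3, of which 0 carried the exon. The exon of CEP41, a ciliary protein needed for tubulin glutamylation, was at 0.42 and 0.58 under TIP60 siRNA, against 0.78 and 0.59 under control siRNA, in empty-vector cells, 0.72 and 0.69, against 0.74 and 0.89, in wild-type TIP60 cells and 0.59 and 0.56, against 0.90 and 0.85, in dead TIP60 cells. It was lower in 6 of 6 pairs, as were 9.46% of all tested events, and the groups did not overlap in any line. The share lower in 6 of 6 among events with fewer reads was not counted. Isoform-specific reads of CEP41 numbered 4 to 46 a library. The share of all events without overlap was not counted. The 143-nt exon of HAUS4 was lower in 6 of 6 pairs, at 0.68 to 0.92 under TIP60 siRNA and 0.74 to 0.97 under control siRNA, and 2 of its specific reads lacked the exon. None of these 3 exons was tested.

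Genes of the same compartments outside these names were few in the tables. Of 40 further centrosome genes 11 had a tested event, 13 in all, of 53 cilium genes 2, with 2 events, and of 61 microtubule regulators and motor adaptors 14, with 23 events. None of these 38 events passed for the average siRNA effect, against 2.12% of all tested events without the block and 4.16% with it. Of the 13 centrosome events 3 were higher and 8 lower, and of the 23 microtubule events 4 and 16, with medians of -0.015 and -0.0183, against -0.0067 over all events. Of all tested events, 62.2% were lower. NDEL1, a dynein regulator, gave -0.135 (SE 0.0423; limma adjusted p = 0.215), lower in 5 of 6 pairs. POC1A, a centriole protein, gave -0.118 (SE 0.0417, limma adjusted p = 0.282, and 0.0584 with the replicate block). It was lower in 6 of 6, as were 9.46% of all tested events.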

How the data were processed

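Polyadenylated RNA was read from 12 MCF10A libraries made with a stranded kit. STAR and hg38 are named in the submitters' processing notes, with no version, and the use of strand in counting is not given in the sources used here. Per the file headers, the deposited value is a fraction, the MISO posterior mean of inclusion with its 95% interval, beside text counts of reads by isoform, of unit other, that the authors did not normalize. Exons were matched to GENCODE 29. Groups came from the labels.

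Inclusion was compared with limma 3.58.1 (R 4.3.3), 6 groups over 12 libraries, with a robust variance trend on log2 isoform-specific reads. Event reads per 1e+06 event reads, log2(RPM + 0.5), were fitted alike over 4992 events; such fold changes understate low events. P-values are two-sided, adjusted by Benjamini-Hochberg over all events. Same-numbered libraries deviated together in all 15 pairs of groups (Pearson r 0.706 to 0.779). The numbers were therefore taken to pair samples in the counts of pairs and in the fits named as having the replicate block. The other fits did not use the numbers. All limma intervals given, and the SEs not named as having the block, come from fits without it. The methods were tested on simulated data, after which the dispersion of the quasi-binomial alternative was held at 1 or more. Named were the 12 events of smallest p for the average effect, 2 for each other inclusion comparison, 6 for event reads, 1 for each remaining prefix and those past a threshold. Members and lists were chosen with earlier results of these data known. With 2 libraries a group, depth and replicate number limit the precision, and intervals cover the fitted spread only.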

Additional observations from a re-analysis of the deposited data

How the results depend on the processing

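No member passed for inclusion under the replicate block, either read minimum, log2 odds, primary chromosomes alone, a comparison's own libraries or the quasi-binomial model without a block, in any of the 8 comparisons. With the share of isoform-specific reads in place of the MISO estimate, 1 event, CKAP5, passed in dead TIP60 cells, in the average, in dead minus wild-type TIP60 and for dead TIP60 against empty vector, where 12, 40, 6 and 5 of 2695 events passed; it has few skipping reads, and the cause was not tested. The quasi-binomial model with replicate block called 2 of 24 in the average, against 113 of 2695 events in all. These were MAP4 3384 nt (difference in read share 0.13, adjusted p = 0.0207 by the quasi-binomial fit with limma's variance moderation) and IFT20 237 nt (-0.337, adjusted p = 0.0329 by the same fit). Leaving out 1 library gave 0 to 1 in the average, and 0 elsewhere; a lone library was then assumed to vary like the others. Event reads gave 4 members with the replicate block and 0 under the other settings. At a gap of 0.05, 2 of 24 members were apart in empty-vector cells (8.27% of all events) and 1 in wild-type TIP60 cells (5.94%), and at 0.15 the count in dead TIP60 cells was 0 (2.37%).

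Signs turned for values near 0: DYNC1LI2 231 nt with read share (0.0033) and the quasi-binomial models (0.00139), and, leaving out 1 library, DYNC1LI2 231 nt (-0.0717 to 0.0117), TUBGCP2 84 nt (-0.0117 to 0.005), IFT46 (-0.0533 to 0.0067) and the event reads of CLASP2 (-0.815 to 0.078). BBS12 event reads turned to -0.74. Over all events, the average effect on inclusion had 57 calls, 112 with the block, 22 with no read minimum, 113 with the quasi-binomial model and block, and 7 to 34 without 1 library. Event reads had 37, 837 with the block, 16 with size factors, 2 with single-isoform reads and 0 to 11 without 1 library. The average over lines uses all 12 libraries, so that a fit of its own libraries alone is the same fit. Few reads without an exon, 30 in all for IFT22 event 2, limit what these libraries can show.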
